A study of Mus musculus with 6 samples.

Results

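Toll-like receptors other than Tlr4 were examined in LPS-stimulated BV2 cells with and without PGC-1α overexpression. The receptors were Tlr1, Tlr2, Tlr3, Tlr5, Tlr6, Tlr7, Tlr8, Tlr9 and Tlr13, and every array probe whose accession belongs to 1 of these 9 genes was kept. That gave 16 probes, each on 1 spot, among 56605 probes and 23462 genes named through RefSeq. The rule names genes and holds no measured value, but earlier results of these data were known when it was set. BV2 cells are an immortalized microglial line of the mouse. All cells received LPS (lipopolysaccharide), a component of the outer membrane of bacteria. Total RNA was measured on 6 Agilent one-colour arrays, 3 without PGC-1α and 3 with PGC-1α, and no unstimulated cells were among them. In the cell culture methods LPS was given at 500 ng/ml for 6 h, although those methods do not name the arrays. PGC-1α was introduced by a lentivirus from a vector named for Ubi, EGFP and puromycin resistance, followed by puromycin selection. The same methods also name a negative-control lentivirus. Whether the control cells of these arrays carried it is not given in the labels. Nothing says that the replicates came from separate cultures, so the p-values measure only the spread between these samples.

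Toll-like receptors are membrane proteins that recognise molecules of microbes through leucine-rich repeats and pass the signal on through a cytoplasmic TIR domain. Tlr4 is the family member that detects LPS itself. Whether the LPS given to these cells also engaged other members was not tested. Tlr2 pairs with Tlr1 or Tlr6 at the cell surface to bind bacterial lipopeptides, and Tlr5 binds flagellin. Tlr3, Tlr7, Tlr8, Tlr9 and Tlr13 act in endosomes on nucleic acids, double-stranded RNA for Tlr3, single-stranded RNA for Tlr7, unmethylated CpG DNA for Tlr9 and bacterial ribosomal RNA for Tlr13. Microglia use these receptors to sense infection and cell debris, and inflammatory stimuli are known to alter the transcription of several of them.

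Signals are given as a percentage of the 75th percentile of the same array, which corrects for overall brightness. The level of one probe says nothing about that of another probe. Log2 fold changes are with minus without PGC-1α, from limma, with Benjamini-Hochberg adjustment over 24559 tested probes and a threshold of 0.05. Testing required a signal well above background throughout 1 group or both. All tested probes together had a median log2 fold change of 0.15 with this scaling and of -0.01 with quantile normalization, and changes of members are therefore also given relative to it. With 3 arrays against 3, the exact permutation test cannot give a two-sided p below 0.1.

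Of the 16 probes, 11 were tested, covering 8 of the 9 genes, and no probe of Tlr3 was. Across the 16, a signal well above background was found on all 6 arrays for 8 probes, on some arrays for 6 and on none for 2. The tested probes of Tlr1 and Tlr8 and the dimmer tested probe of Tlr13 passed the filter through the brighter group alone, so counts over tested probes are no support by themselves. Past the threshold, 6 probes of Tlr1, Tlr2, Tlr6, Tlr7 and Tlr13 were lower with PGC-1α and 2 probes of Tlr7 and Tlr8 were higher. Over all tested probes 52.7% passed, 21.3% lower and 31.4% higher. The same 6 probes were the lower ones, and the same 2 the higher ones, among tested member probes whose groups did not overlap. Such a separation was found in 62.9% of all tested probes with values on every array, 25.3% lower and 37.7% higher. After quantile normalization the same 8 probes passed in the same directions, against 40.9% of all probes, 22.6% lower and 18.3% higher. With a log2 fold change of -1 or below in addition, 5 member probes passed, against 8.42% of all tested probes. The median of the tested member probes was -0.79, or -0.93 relative to the median of all probes. Probes of 1 gene share a target, and both lower Tlr7 probes were among the 6.

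The stretch of 250 bases upstream of the annotated start site is shown for 3 members, Tlr2 with a lower signal, Tlr8 with a higher signal and Tlr9 without a call. The sequences are those of RefSeq on GRCm38.p6, written 5′ to 3′ on the strand of the gene, at chr3:83841609-83841858 (minus strand) for Tlr2, chrX:167264330-167264579 (minus strand) for Tlr8 and chr9:106222348-106222597 (plus strand) for Tlr9. Capitals mark matches, on either strand, to the motifs described next.
Tlr2: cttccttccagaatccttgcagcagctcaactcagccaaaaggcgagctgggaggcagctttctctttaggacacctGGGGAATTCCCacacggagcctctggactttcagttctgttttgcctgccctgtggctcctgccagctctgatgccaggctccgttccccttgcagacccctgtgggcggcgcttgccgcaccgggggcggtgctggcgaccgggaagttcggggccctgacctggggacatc
Tlr8: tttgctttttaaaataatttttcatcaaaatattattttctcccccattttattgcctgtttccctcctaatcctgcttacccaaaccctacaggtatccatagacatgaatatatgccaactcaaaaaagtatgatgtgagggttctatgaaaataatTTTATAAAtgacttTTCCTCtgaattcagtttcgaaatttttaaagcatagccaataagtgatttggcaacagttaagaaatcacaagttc
Tlr9: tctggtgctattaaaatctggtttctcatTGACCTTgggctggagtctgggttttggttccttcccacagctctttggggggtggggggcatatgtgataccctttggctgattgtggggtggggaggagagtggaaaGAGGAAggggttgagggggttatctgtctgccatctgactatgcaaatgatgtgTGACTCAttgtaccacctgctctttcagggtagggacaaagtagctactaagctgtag
The motifs searched were the consensus κB site, bound by NF-κB; GAGGAA, the core bound by the macrophage factor PU.1; AAGGTCA, the core bound by oestrogen-related receptors, which are partners of PGC-1α; TGANTCA, bound by AP-1; and TATAAA. Start sites of 8 of the 9 genes were in the table. In Tlr2 the only matches were a pair of overlapping κB matches between 173 and 163 bases before the start site. Any κB match, single or overlapping, was found in 7.25% of 32851 upstream stretches. Tlr8 held overlapping TATAAA matches on both strands and 1 GAGGAA match. Any TATAAA match, on either strand, was found in 12.4% of all stretches. Tlr9 held a match to AAGGTCA, to GAGGAA and to TGANTCA, which were found in 4.08%, 23.3% and 6.75% of all stretches. Among the other members, κB also matched upstream of Tlr3, GAGGAA upstream of Tlr1 and Tlr13, AAGGTCA upstream of Tlr5, and TATAAA upstream of Tlr6. For Tlr1 and Tlr6 this holds at the first of 2 annotated start sites, and the second held no match. A match is a string of letters and was not tested as a binding site.

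Among the lipopeptide receptors, Tlr2 (NM_011905, probe A_51_P452629) was at 438%, 426% and 419% of the 75th percentile on the arrays without PGC-1α and at 118%, 144% and 124% on those with it. The groups were far apart, and the spread within each was small, also before scaling, when the intensities were 7078, 6933 and 7926 against 1360, 1234 and 1571. All arrays with PGC-1α were dimmer, so unscaled separation alone is no support. Before scaling, Tlr5, which did not pass, was also lower without overlap, at 449, 362 and 420 against 239, 225 and 273. So was Tlr9, at 1729, 1895 and 1605 against 1342, 1249 and 1479. The scaled log2 fold change of Tlr2 was -1.74 (standard error 0.13, adjusted p = 8.1e-05 from limma), or -1.89 relative to the median of all probes, so that the signal was 3.34-fold lower. It passed under all 20 alternatives, with values from -1.88 to -1.65. Of all tested probes, 2.30% had a lower value.

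Tlr1 (NM_030682, probe A_51_P495581), which forms a receptor for triacylated lipopeptides with Tlr2, was at 2.37%, 2.78% and 2.12% without PGC-1α and at 1.27%, 0.697% and 0.591% with it. All arrays with PGC-1α were lower than those without, but only 1 of them was well above background, so the probe was tested because of the brighter group. The fit gave -1.58 on the log2 scale (standard error 0.27, adjusted p = 0.0027 from limma). After background correction by normexp, scaled to the 75th percentile, it was 0.020 (adjusted p = 0.93), and with normexp and quantile normalization -0.49 (adjusted p = 0.013). The second probe (A_66_P137861, listed under the variant NM_001276445) was at 0.982%, 1.05% and 0.948% and at 0.229%, 0.336% and 0.352%. Only 2 arrays without PGC-1α and none with it were well above background, so the probe was not tested and is given no fold.

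Tlr6 (NM_011604), the partner of Tlr2 for diacylated lipopeptides and a neighbour of Tlr1 in the genome, was at 9.43%, 10.3% and 10.6% without PGC-1α. With PGC-1α it was at 6.68%, 5.17% and 5.80%, below every array without it. It changed by -0.79 on the log2 scale (standard error 0.14, adjusted p = 0.0029 from limma), or -0.93 relative to the median. It was -0.28 with normexp and the 75th percentile and did not pass there (adjusted p = 0.10), but passed with normexp and quantile normalization (-0.58, adjusted p = 0.0026).

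Tlr5 (NM_016928) did not pass. Its signals were 27.7%, 22.2% and 22.2% without PGC-1α and 20.6%, 26.2% and 21.5% with it, and the groups overlapped. The log2 fold change was -0.08 with a 95% interval from -0.43 to 0.28 (adjusted p = 0.69 from limma). The difference of this flagellin receptor was smaller than the spread between replicates.

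**Figure D1:**
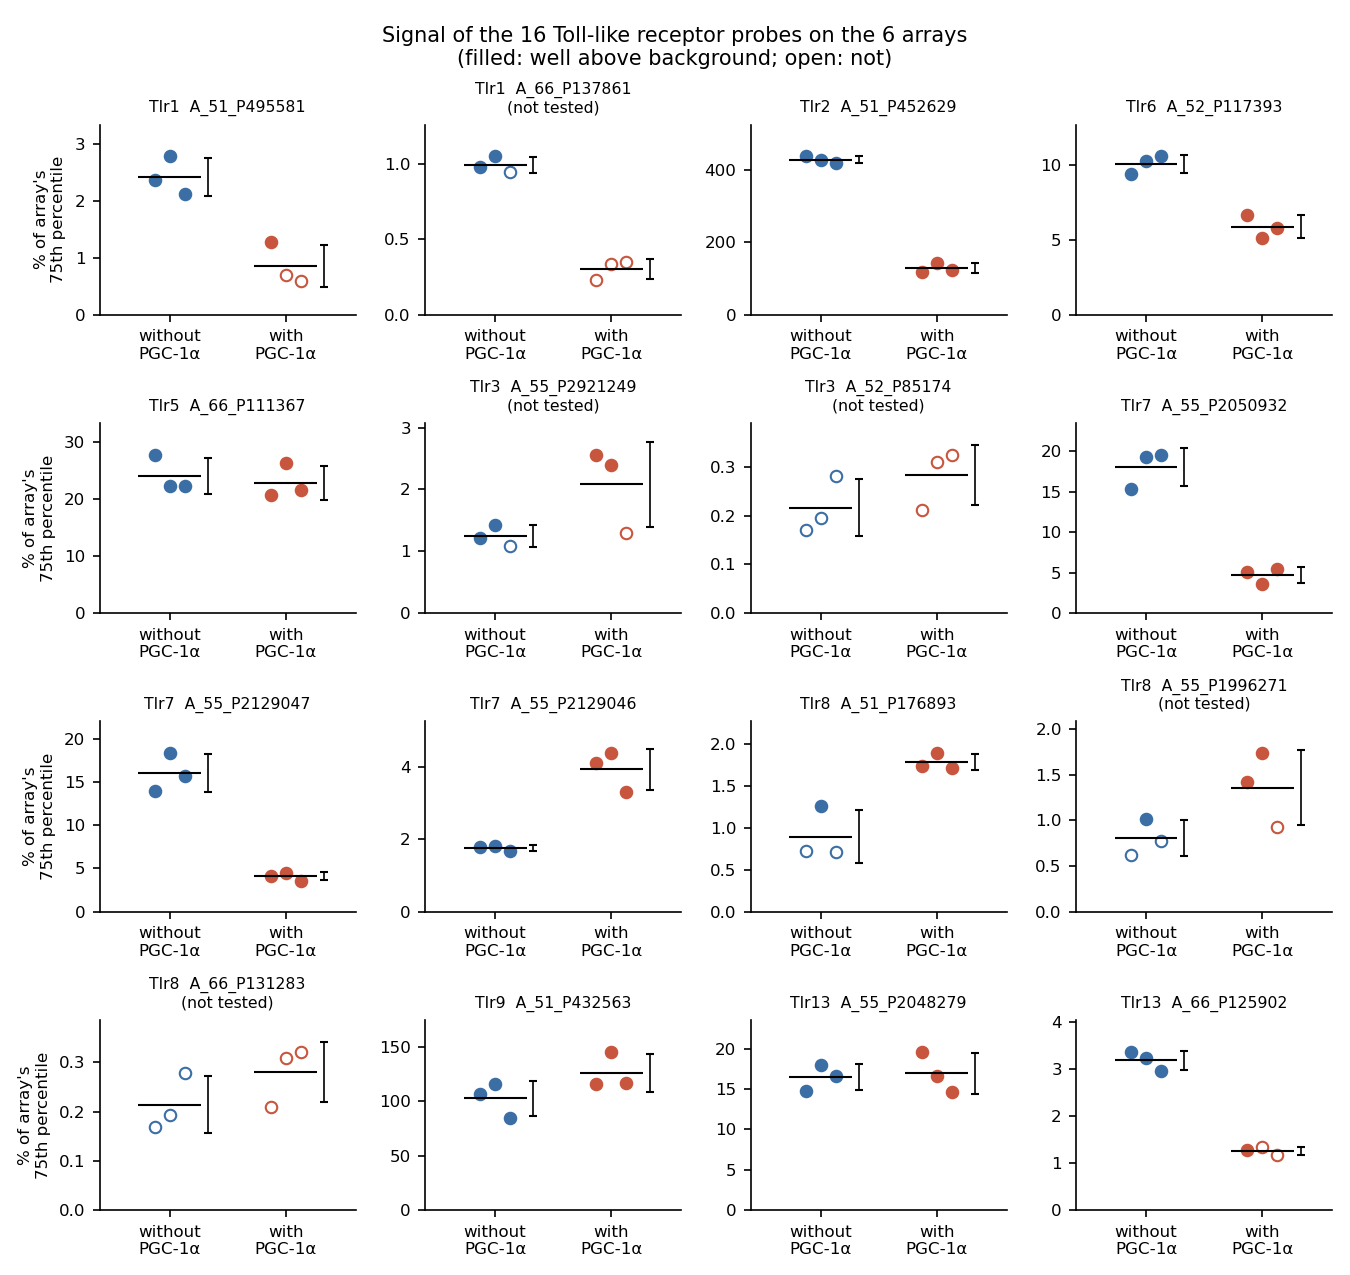
Signal of each of the 16 probes on the 6 arrays, as a percentage of the 75th percentile of the array, with 1 panel per probe and its own axis from 0; points are arrays (filled where well above background, open where not), lines are group means and bars are SD (n = 3). Tlr2, Tlr6 and the first Tlr7 probes fell without overlap, Tlr5, Tlr9 and the brighter Tlr13 probe overlapped, and the open points show where a signal lay near background.

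Tlr7 gave opposite results on its probes. The first (A_55_P2050932, NM_001290755) was at 15.3%, 19.3% and 19.6% without PGC-1α and at 5.09%, 3.56% and 5.48% with it. The second (A_55_P2129047, same accession) was at 14.0%, 18.4% and 15.8% and at 4.16%, 4.51% and 3.60%. On both, every array with PGC-1α was lower than every array without it, and all 6 arrays were well above background. The unscaled intensities with PGC-1α were low, however, at 58.9, 30.5 and 69.5 on the first probe and 48.1, 38.6 and 45.7 on the second. Log2 fold changes were -1.96 (standard error 0.19, adjusted p = 2.6e-04 from limma) and -1.97 (standard error 0.15, adjusted p = 9.6e-05 from limma), 3.88-fold and 3.92-fold lower. Both passed under every alternative in which they were tested, with values between -2.11 and -1.05, those nearest to 0 coming from normexp with the 75th percentile.

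The third Tlr7 probe (A_55_P2129046), listed under another transcript variant, NM_001290758, went the other way. Its signals were 1.79%, 1.82% and 1.66% without PGC-1α and 4.12%, 4.39% and 3.30% with it. No array with PGC-1α was as low as any without it, and before scaling the intensities, 28.9, 29.6 and 31.5 against 47.7, 37.5 and 41.8, did not overlap either. The log2 fold change was 1.15 (standard error 0.14, adjusted p = 7.2e-04 from limma), or 1.01 relative to the median, and 0.30 with normexp and quantile normalization (adjusted p = 0.047). Such opposite calls on different probes were made for 343 of 5933 genes (5.78%) that had more than 1 tested probe. Where the probes lie in the transcripts was not analysed here.

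Tlr8 (NM_133212), which lies next to Tlr7 on the X chromosome, was close to background. Its brightest probe (A_51_P176893) was at 0.719%, 1.26% and 0.709% without PGC-1α, with 1 of 3 arrays well above background, and at 1.74%, 1.89% and 1.72% with it, where all 3 were. The scaled groups did not overlap, but before scaling the intensities did, with 11.6, 20.5 and 13.4 against 20.1, 16.2 and 21.8. The log2 fold change was 1.04 (standard error 0.22, adjusted p = 0.0064 from limma), and 0.12 with normexp and quantile normalization, which did not pass (adjusted p = 0.38). A second probe of Tlr8 was at 0.625%, 1.02% and 0.775% and at 1.42%, 1.74% and 0.926%, with overlapping groups, and was not tested. The third was not well above background on any array. Its scaled values still differed by 0.40 on the log2 scale, as did those of a Tlr3 probe that was never above background, by 0.39.

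Tlr3 (NM_126166) could not be tested. The brighter of its probes (A_55_P2921249) was at 1.21%, 1.43% and 1.08% without PGC-1α and at 2.56%, 2.39% and 1.30% with it, and in either group 1 of the 3 arrays was too dim. The groups overlapped, and a change of this double-stranded RNA receptor was not detectable at this signal.

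Tlr9 (NM_031178) was bright on every array and did not pass. It was at 107%, 116% and 84.8% without PGC-1α and at 116%, 146% and 117% with it. The difference was 0.30 on the log2 scale with a 95% interval from -0.08 to 0.68 (adjusted p = 0.16 from limma). The highest array without PGC-1α lay above the lowest array with it, so the groups overlapped.

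Tlr13 (NM_205820) was measured by a pair of probes listed under the same accession, which differed. The brighter one (A_55_P2048279) was at 14.8%, 18.0% and 16.7% without PGC-1α and at 19.7%, 16.6% and 14.6% with it, a log2 fold change of 0.035 with a 95% interval from -0.32 to 0.39 (adjusted p = 0.86 from limma). The dimmer one (A_66_P125902) was at 3.37%, 3.22% and 2.97% and at 1.27%, 1.34% and 1.17%, with no overlap, and only 1 array with PGC-1α was well above background. Its log2 fold change was -1.34 (standard error 0.12, adjusted p = 2.0e-04 from limma), but 0.041 with normexp and the 75th percentile (adjusted p = 0.84) and -0.42 with normexp and quantile normalization (adjusted p = 0.012). This probe was tested through the brighter group.

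**Figure D2:**
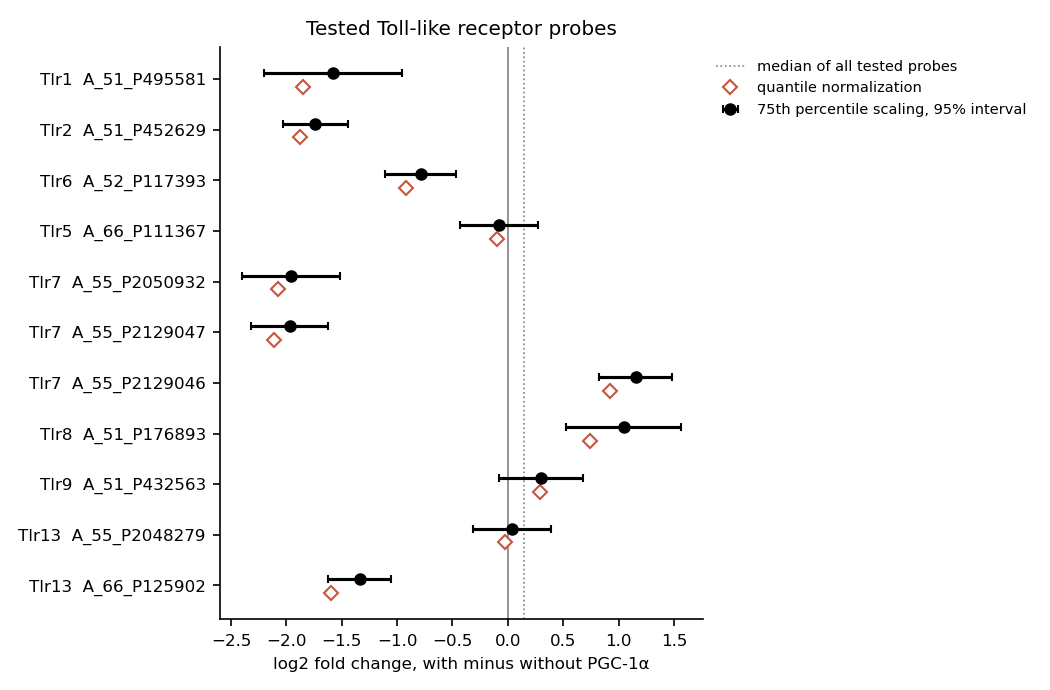
Log2 fold change (with minus without PGC-1α) of the 11 tested probes; black points with bars are the values after scaling to the 75th percentile with their 95% intervals from limma, open diamonds the values after quantile normalization, and the dotted line the median of all tested probes, 0.15. The lower probes of Tlr1, Tlr2, Tlr7 and Tlr13 lay between -1.97 and -1.34, Tlr6 at -0.79, and both scalings gave the same 8 calls.

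The arrays lay on 2 slides, and the values were recomputed on each. On slide 1, with 2 arrays a group, the log2 fold changes of the 8 probes past the threshold had the same signs and all passed. Tlr2 was -1.73 on slide 1 and -1.76 on slide 2, and the Tlr7 probes were -2.01, -1.89 and 1.24 on slide 1 and -1.84, -2.13 and 0.99 on slide 2. Slide 2 held 1 array of each group, so its values have no test. The brighter Tlr13 probe was 0.15 on slide 1 and -0.19 on slide 2.

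**Figure D3:**
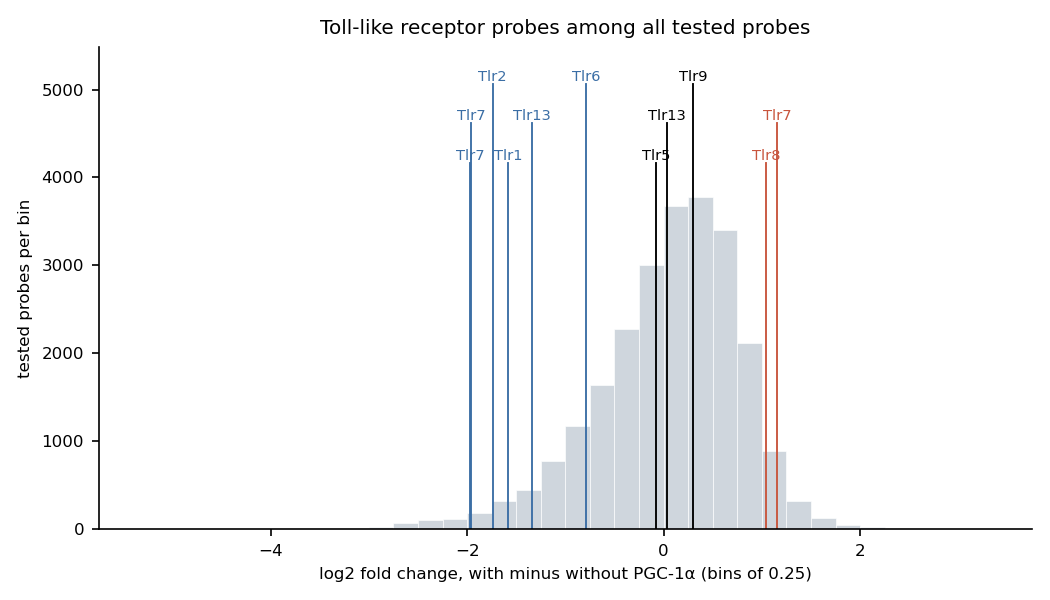
Histogram of the log2 fold changes of all 24559 tested probes in bins of 0.25, with vertical lines at the 11 tested probes of Toll-like receptors, in blue where lower and red where higher past the threshold and in black otherwise. The lines of Tlr7, Tlr2, Tlr1 and Tlr13 at -1.34 and below stand in the left tail, where 4.65% of all tested probes had values below the dimmer Tlr13 probe.

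Of the family members outside these 9, Tlr4 was lower on both probes (by a log2 fold change of -3.24 on the first, and at least 7.65-fold on the second, where no array with PGC-1α was well above background) and Tlr12 fell by 3.53 on the log2 scale (adjusted p = 1.6e-05 from limma). The Tlr12 probe passed the filter through the brighter group alone, as only 2 of the 3 arrays with PGC-1α were well above background. Tlr11 was at 0.45 and did not pass (adjusted p = 0.19). Across the 6 arrays, the genes with a pattern most like the Tlr7 probe of the largest change, A_55_P2129047, were Tmem251, Synrg and Adal, with Pearson's r of 0.9988, 0.9988 and 0.9982. Of 16296 genes, 52 had an r above 0.99, which is a description over 6 arrays that differ by group.

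Beside the receptors, 49 genes of the Toll-like receptor pathway were listed by role, and 47 were tested by their brightest probe. The list holds genes of ligand handling and of receptor trafficking and cleavage as well as genes of downstream signalling. Of them, 10 were lower and 9 higher (19 in all), next to 55.3% called over 17063 genes, 19.2% lower and 36.1% higher. The median of the list was -0.01, or -0.24 relative to all genes. After quantile normalization 11 were lower and 2 higher, next to 41.6% called over all genes, 20.5% lower and 21.2% higher, so the number of higher genes depended on the scaling. With replicate 1 with PGC-1α left out, 11 genes passed in all.

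Of the 5 adaptors tested, Tirap, which links Myd88 to Tlr2 and Tlr4 at the membrane, was lower. It was at 36.8%, 38.3% and 32.0% without PGC-1α and at 10.5%, 10.3% and 9.32% with it, a log2 difference of -1.83 (adjusted p = 6.9e-05 from limma). Myd88, the adaptor of all members here except Tlr3, had a log2 fold change of 0.23 and Ticam1, the adaptor of Tlr3, of -0.42, and neither passed (adjusted p = 0.24 and 0.077). Of 17 kinases, ubiquitin enzymes and their partners, 4 were lower and 2 higher on their brightest probe. Other probes were lower past the threshold for Irak2 (-1.25), Traf6 (-0.90), Ube2n (-0.65) and Ikbkg (2 probes, down to -1.06), whose brightest probes did not pass. Map3k8, a kinase upstream of ERK, fell by 1.33 on the log2 scale, Traf3, a ubiquitin ligase of the interferon branch, by 0.96 and Irak4, the first kinase recruited by Myd88, by 0.85. Irak1 and Ube2v1 rose by 0.48 and 0.57 and did not pass after quantile normalization (0.23 and 0.09, adjusted p = 0.22 and 0.65).

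Of 5 transcription factors, Irf3, which acts downstream of Tlr3 and Tlr4, was lower. It was at 283%, 269% and 233% without PGC-1α and at 79.6%, 77.6% and 94.1% with it, a log2 fold change of -1.64 (adjusted p = 1.4e-04 from limma), and its second probe gave -1.70. Rela and Irf7 did not pass on their brightest probes, while another probe passed for each, at -0.42 and 0.49. Of 7 negative regulators, 4 were lower and 2 higher. Tnfaip3, a ubiquitin-editing enzyme that ends NF-κB signalling, fell by 1.07 on the log2 scale, Sigirr, an inhibitory receptor of the same superfamily, by 0.91 and Tnip1, a partner of Tnfaip3, by 0.80. Tollip rose by 0.77 (0.57 after quantile normalization). Cyld changed by 0.37 on its brightest probe, past the threshold, while another of its 3 probes gave -0.70.

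Of the 8 tested genes for trafficking and cleavage of the endosomal receptors, 3 were higher on their brightest probe and none was lower. The protease Ctsl did not pass on its brightest probe (0.27), while its other probe passed at -1.32. The higher ones were the lysosomal proteases Ctsb, Ctss and Lgmn, which process endosomal receptors, with log2 fold changes of 0.46, 0.46 and 0.36. After quantile normalization the values were -0.10, 0.07 and -0.16, and none of them passed. Unc93b1, the chaperone that carries Tlr3, Tlr7, Tlr9 and Tlr13 to endosomes, was at 0.18 and did not pass (adjusted p = 0.28). In ligand handling Grn and Cd36 were higher, by 0.54 and 0.50, and neither passed after quantile normalization (adjusted p = 0.53 and 0.16). Hmgb1 did not pass on its brightest probe (0.17), but both its other probes were higher, up to 0.52.

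**Figure D4:**
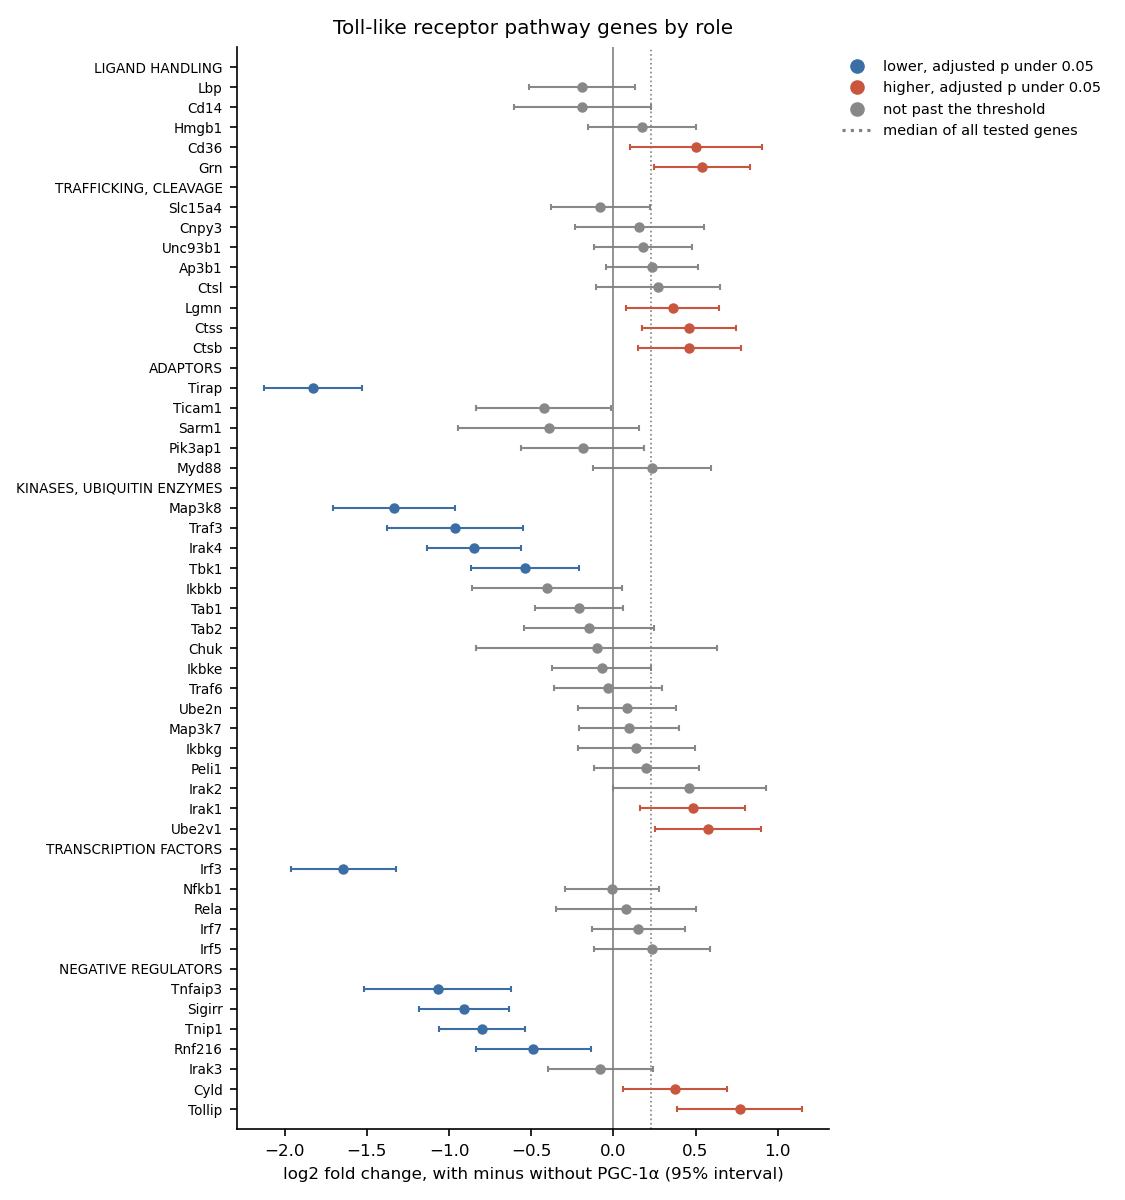
Log2 fold change (with minus without PGC-1α) of the 47 tested pathway genes, grouped by role, with 95% intervals from limma; blue and red mark genes lower and higher past the threshold, grey the rest, and the dotted line the median of all tested genes, 0.23. Tirap at -1.83, Irf3 at -1.64 and Map3k8 at -1.33 lie furthest to the left, and each gene is drawn by its brightest probe alone, so that the lower probe of Ctsl at -1.32 is not shown.

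The 75th percentile was between 1617 and 1893 on the arrays without PGC-1α and between 856 and 1268 on those with it, so that dimmer arrays coincide with the group, and no probe was saturated. Ppargc1a, which encodes PGC-1α, was near background. Its brighter probe was at 1.35%, 1.21% and 0.479% without PGC-1α and at 1.93%, 2.58% and 1.67% with it, and in either group 1 of the 3 arrays was too dim, which gives no firm check of the labels. Of 15 microglia and macrophage markers, 13 were well above background on all 6 arrays, while Cx3cr1 and P2ry12 were on none. Of the 13, 6 were higher and 1, Tmem119, was lower, by a log2 fold change of -2.68 (adjusted p = 5.4e-05 from limma). Over all genes, 36.1% were higher and 19.2% lower. The summed signal of the 15 was 9380% to 9720% without PGC-1α and 13141% to 15457% with it. Most of it came from Itgam, Cd68 and Tyrobp, which were at 0.13, -0.12 and 0.16 on the log2 scale after quantile normalization and did not pass there. Csf1r and Trem2, at 0.29 and 0.17, did not pass there either (adjusted p = 0.14 and 0.34 from limma). Of the higher markers only C1qa still passed, at 0.78, while Tmem119 and Adgre1 passed there as lower, at -2.71 and -0.45. Fibroblast markers, present on all arrays, summed to 1535% to 1654% and to 2655% to 3197%, with 3 of 4 higher and 1 lower. Col1a1, the largest part of that sum, was at 0.25 after quantile normalization and did not pass there (adjusted p = 0.14 from limma). Col1a2, Dcn and Pdgfra still passed there, at 1.04, 0.74 and -1.79. Among 4 neuron markers, Snap25 made up nearly the whole signal, at 2194% to 2776% and 3514% to 4833%, and was at 0.71 on the log2 scale (0.11 after quantile normalization, adjusted p = 0.50 from limma). Map2 was at -0.25 and did not pass, Rbfox3 was near background, and Syt1 was at background on every array. Lists for astrocytes, oligodendrocytes, lymphocytes, endothelial and dendritic cells held 1 or 2 higher markers each. Only the dendritic list held a lower one, Flt3, at -1.44 (adjusted p = 2.0e-04 from limma) and -1.54 after quantile normalization. Siglech was higher, at 0.70, but did not pass after quantile normalization (0.15, adjusted p = 0.58 from limma), and Zbtb46 did not pass. The part of these markers in the results was not tested. In bulk RNA of this kind, fewer cells with a transcript and less of it per cell cannot be told apart.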

How the data were processed

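Per the file headers, the authors' scanner software (Agilent Feature Extraction, green channel) measured the intensity of each spot, subtracted background and removed spatial trends; these intensities were deposited with no further scaling of one array to another. The labels name Cy3 and the labelling protocol Cy5. The authors also deposited log2 values normalized in GeneSpring by a procedure not given in the sources used here.

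Of 59305 spots other than controls, 149 to 1590 per array carried outlier flags and were left out. The 75th percentile of each array was subtracted from the log2 intensity. Probes were named through their accession in RefSeq genes of GRCm38; 33767 of 56605 (59.7%) matched. The array design uses an older build, so no probe coordinates are given. Tested probes had values for 2 or more arrays in either group and were well above background throughout 1 group. The test was the moderated one of limma 3.58.1 (lmFit and eBayes, R 4.3.3), two-sided, over 24559 probes; the steps were tested on simulated data. Exact permutation tests were run over arrays. Genes in lists were represented by their brightest tested probe. Python 3.11.15, numpy 2.4.6, pandas 2.3.3 and matplotlib 3.10.9 were used.

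All members and every probe are named, as are Ppargc1a, the other Toll-like receptors and, in each role group, up to 3 called pathway genes of the largest change in each direction; Myd88, Ticam1 and Unc93b1, which did not pass, genes with calls on other probes only, and single markers were added after their values were seen. Members and lists were chosen with earlier results of these data known. The number of arrays limits the precision, as does the background for dim probes.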

Additional observations from a re-analysis of the deposited data

How the results depend on the processing

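Alternatives were other scalings, normexp background correction with an offset of 50, the authors' log2 values, other filters, other sets of probes in the fit, the slide or replicate number as a block, other variance models and each array left out in turn. The values on slide 2 alone were added after seeing the data. Of 214 values of tested member probes under these alternatives, 203 kept their direction and their side of the threshold. Other filters, other sets of probes and the blocks left the log2 fold change itself unchanged (-1.74 for Tlr2 in each). Their direction therefore could not differ, and only the side of the threshold was tested there. The count of 8 member probes was 5 with normexp and the 75th percentile. It was also 5 (of 8 tested) with a filter for signal on all 6 arrays and with the brightest probe of each gene, where fewer probes were tested by construction. It was 8 with each array left out in turn. Signs turned with normexp and the 75th percentile for Tlr1 (0.020) and the dimmer Tlr13 probe (0.041); the cause was not tested. The brighter Tlr13 probe, which did not pass, was -0.029 after quantile normalization, -0.075 with the median as scale, -0.10 with normexp and quantile normalization and -0.018 with the authors' log2 values, and with each array left out ranged from -0.077 to 0.14. Tlr5, which did not pass, ranged from -0.18 to 0.030 with each array left out.

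The count of 19 pathway genes was 12 with normexp and quantile normalization and ranged from 11 to 18 with each array left out, the lowest without replicate 1 with PGC-1α; the cause was not tested. Arrays with the same replicate number were not shown to be paired: the correlations of their deviations from the group means over probes were -0.20, 0.02 and 0.60. With the replicate block, 8 member probes and 18 pathway genes passed, and not every array correlated best with its own number. Signal over background limits Tlr1, Tlr3, Tlr8 and the dimmer Tlr13 probe.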
